A study of Mus musculus with 7 samples.

Results

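Ctse, Klk15 and Lrmp are 3 genes of the mouse colon epithelium that were chosen by their RPKM (reads per kilobase of gene, scaled to the unique reads of the library): a low RPKM on day 1 after dextran sulfate sodium (DSS) and a high RPKM on day 7, in both treatment arms. They are 3 of 18036 genes with at least 1 unique read in any library, and all 3 were among the 12061 that reached 1 RPKM in 2 or more libraries, to which the tests were limited. All mice were 6-week-old female hCYP1A animals on C57BL/6, in which human CYP1A genes stand in place of the mouse ones, so the controls carried the human genes too. The PhIP/DSS arm received PhIP, a carcinogen of cooked meat that CYP1A enzymes activate, in 2 doses of 100 mg/kg given 4 days apart, and afterwards drank 1.5% DSS for 5 days. The DSS arm had the same DSS course without PhIP, and the control mice received no treatment. Colon epithelium was scraped from the muscle layer 1, 3 or 7 days after DSS, and RNA of 3 mice was pooled into 1 library per arm and day, next to 1 control library. The labels call days 1 and 3 colitis, day 7 partial colitis and the control normal. Days here are as labelled. The table deposited for each library has another day code in its name, which is 3 for day 1, 7 for day 3 and 17 for day 7 in both arms and 7 for the control, and what these codes count from is not stated in the sources used here.

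No condition had a second library, so the values below carry counting error only, as exact 95% Poisson intervals, and the spread between mice was averaged within each pool. The 7 libraries held 7664276 to 8781886 unique reads. Markers of absorptive colonocytes were abundant throughout (12 of 12 past the filter, 16759 to 24785 RPKM summed). Most of that sum was Lypd8, at 9596 to 19363 RPKM. In each treated library 3 to 5 of the 12 were at least 2-fold below the control, a larger share than the 3.88% to 9.74% of all genes. Slc26a3 had 470 RPKM in the control and 110 to 175 RPKM in the treated libraries. Slc20a1 had 308 RPKM in the control and 27.5 to 60.7 RPKM in the treated libraries. At least 2-fold above the control were 0 to 4 of the 12, against 5.8% to 12.2% of genes. Markers of other cells varied: the summed level of 8 neutrophil markers was 818, 31.4 and 70.2 RPKM on days 1, 3 and 7 of PhIP/DSS, 35.7, 1152 and 462 RPKM on the same days of DSS, and 2.87 RPKM in the control. Those of 9 macrophage and dendritic cell markers were 504, 105 and 194 RPKM in PhIP/DSS, 111, 285 and 249 RPKM in DSS, and 52.4 RPKM in the control. In both lists, day 1 stood highest within PhIP/DSS and day 3 within DSS. Fibroblast markers (7 past the filter) followed the same order in PhIP/DSS, at 234, 42.9 and 84.8 RPKM summed, with 47.8, 129 and 125 RPKM in DSS and 13.8 RPKM in the control.

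DSS injures the colonic surface, and after it is withdrawn the epithelium is rebuilt from the crypts. The 3 genes belong to different families. Ctse encodes cathepsin E, an aspartic protease of endosomes that is known from stomach epithelium and antigen-presenting cells. Klk15 encodes a secreted serine protease of the tissue kallikrein family, whose genes lie side by side in a cluster. Lrmp (also named Jaw1 or Irag2) encodes a membrane protein of the endoplasmic reticulum and nuclear envelope that partners with IP3 receptors, the calcium channels of that store, and it is known from lymphoid cells and tuft cells.

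Ctse (chr1:131638314-131675507, plus strand, GRCm38) had 6.80, 58.0 and 106 RPKM on days 1, 3 and 7 of PhIP/DSS, 11.9, 17.7 and 83.8 RPKM on days 1, 3 and 7 of DSS, and 74.1 RPKM in the control. Both day 1 libraries stood below the control, and both day 7 libraries stood above it. These values rest on 123 to 1885 unique reads. Rab7b, a small GTPase gene that lies next to Ctse, had 0.226 to 1.50 RPKM across libraries. Relative to the control, Ctse was at 0.0917 (95% interval 0.0756 to 0.110), 0.783 (0.720 to 0.851) and 1.43 (1.33 to 1.54) in PhIP/DSS, and at 0.160 (0.138 to 0.185), 0.238 (0.210 to 0.270) and 1.13 (1.05 to 1.22) in DSS. On day 3, which the choice of genes did not use, the arms stood apart: PhIP/DSS was near the control, and DSS was still 4.19-fold below it. In bulk RNA such as this, fewer cells that express a gene and less RNA of it per cell cannot be told apart.

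Klk15 (chr7:43929405-43940035, plus strand) had 0.306, 3.10 and 34.5 RPKM on days 1, 3 and 7 of PhIP/DSS, from 2, 20 and 222 unique reads. On the same days of DSS it had 0, 0.149 and 19.9 RPKM, from 0, 1 and 126 unique reads, and the control had 10.9 RPKM from 64 unique reads. Both day 1 libraries and the DSS day 3 library were near 0, and both day 7 libraries were above the control. Against a floor of 3 reads in the DSS day 1 library, or 0.449 RPKM, Klk15 was at least 24.3-fold lower there than in the control. The exact interval of that ratio, which also takes in the counting error of the control, reached up to 0.0521. Relative to the control it stood at 0.0281 (0.00333 to 0.106), 0.284 (0.163 to 0.476) and 3.16 (2.39 to 4.25) on days 1, 3 and 7 of PhIP/DSS. In DSS it stood at 0.0136 (0.000340 to 0.0787) on day 3 and 1.83 (1.34 to 2.51) on day 7. The reads of the day 7 libraries covered 98.95% of the 765-base gene in PhIP/DSS and 99.2% in DSS, against 97.3% in the control. The annotation places an antisense gene, Gm44756, over the end of Klk15 on the minus strand, and the sources used here do not give the strand setting of the counting, so reads of the pair cannot be told apart.

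Lrmp (chr6:145111715-145174929, plus strand) had 5.37, 32.0 and 69.6 RPKM on days 1, 3 and 7 of PhIP/DSS, 10.5, 19.0 and 75.2 RPKM on the same days of DSS, and 8.01 RPKM in the control. The lowest library was PhIP/DSS day 1, the control stood between the day 1 libraries, and all libraries of days 3 and 7 were above it. Relative to the control, Lrmp stood at 0.670 (0.516 to 0.868), 3.99 (3.32 to 4.82) and 8.69 (7.30 to 10.4) in PhIP/DSS, and at 1.31 (1.05 to 1.63), 2.37 (1.95 to 2.90) and 9.39 (7.90 to 11.2) in DSS. The description of these genes as low and then recovered rests on the days that chose them. Against the control, Ctse and Klk15 were low on day 1 and had passed its level by day 7. Klk15 then stood at 3.16 of it in PhIP/DSS and 1.83 in DSS. This was not so for Lrmp, which was above the control on day 1 of DSS and well above it on day 7 in both arms. Casc1, which overlaps the end of Lrmp on the opposite strand, had at most 0.329 RPKM. The annotation also places Gm43910 on that strand within Lrmp. With the strand setting not given, reads where these genes overlap cannot be assigned by strand. The nearby Etfrf1, an electron transfer flavoprotein regulator, had 9.25 to 13.7 RPKM across libraries.

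**Figure D1:**
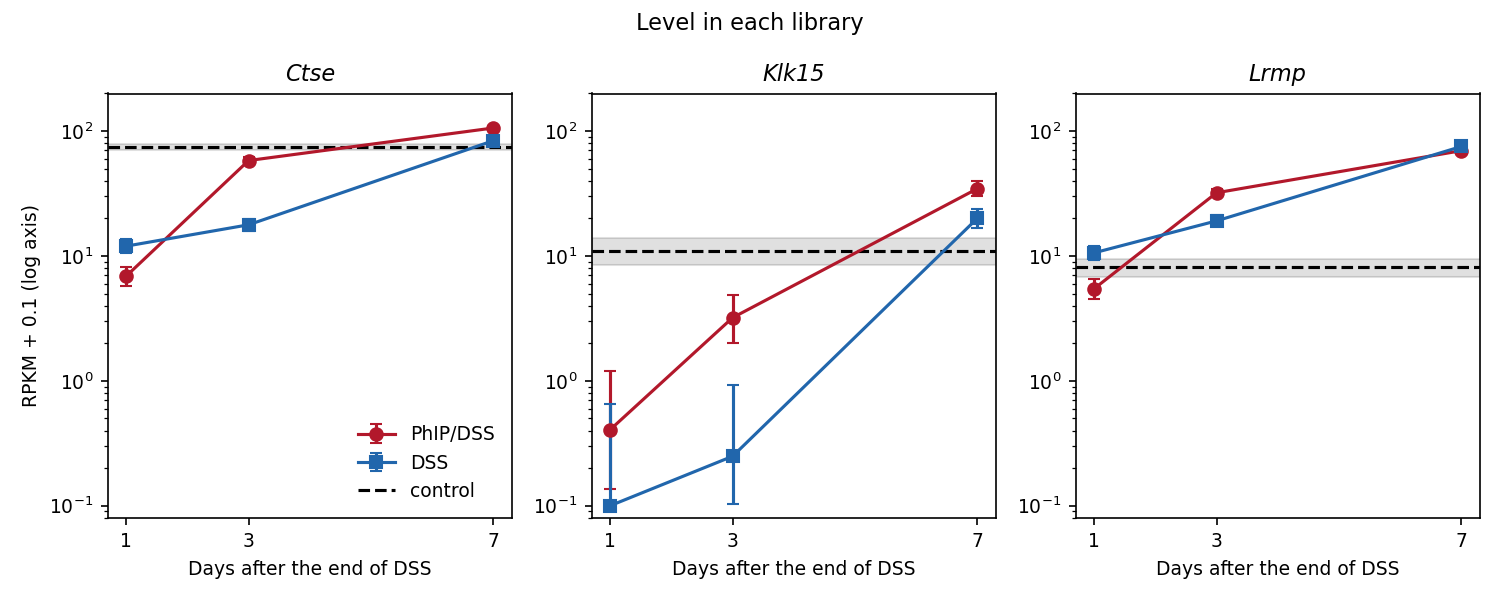
RPKM plus 0.1 on a log axis for Ctse, Klk15 and Lrmp by day after DSS, with PhIP/DSS as circles, DSS as squares and the control library as a dashed line with its interval shaded; bars are exact 95% Poisson intervals and each point is 1 library (0 RPKM is drawn at 0.1). Ctse and Klk15 start below the control and end above it, at 106 and 34.5 RPKM on day 7 of PhIP/DSS, whereas Lrmp starts around the control and ends at 69.6 and 75.2 RPKM on day 7 of PhIP/DSS and DSS.

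The size of the gap between days 1 and 7 is what chose the genes, and is given here without a test. Ranked by the lower day 7 value over the higher day 1 value, on the log2(RPKM + 0.1) scale, Klk15 was the first of the 12061 genes, with a log2 gap of 5.62. Ctse had a gap of 2.81 and rank 10, and Lrmp a gap of 2.72 and rank 11. The ranking has no stated limit: Gata5, at rank 9, had a gap of 2.90 but at most 2.42 RPKM, and Pamr1, at rank 13, had a gap of 2.39 and at most 12.4 RPKM. A gene with a comparable level was Clu (clusterin, a secreted chaperone) at rank 8, with 48.7, 54.5 and 395 RPKM in PhIP/DSS, 22.3, 41.4 and 460 RPKM in DSS, and 28.7 RPKM in the control. The choice of genes also bears on the shares that follow, which are given as description. Both day 7 libraries exceeded both day 1 libraries for 25.7% of the genes. Day 3 lay between days 1 and 7 in both arms, in rising order, for all 3 genes and for 9.56% of the 12061. Both day 7 libraries were above the control for all 3 and for 37% of all genes.

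The ratio to the control was then set beside that of all 12061 genes, with 2-fold as the size used for single libraries and no test. Only the counts on day 3 rest on libraries that did not choose the genes. All these ratios share the 1 control library. On day 1, Ctse and Klk15 were at least 2-fold lower than the control, which 9.74% of genes were in PhIP/DSS and 6.18% in DSS. On day 3 of PhIP/DSS, Klk15 was at least 2-fold lower (4.29% of genes) and Lrmp at least 2-fold higher (5.8%). On day 3 of DSS, Ctse and Klk15 were at least 2-fold lower (6.39% of genes), and Lrmp at least 2-fold higher (8.11%). On day 7, Klk15 and Lrmp were at least 2-fold higher in PhIP/DSS (7.9% of genes), and Lrmp in DSS (8.19%).

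The steps between days each start from or end at a value that chose the genes, so their size is a description. In RPKM, Ctse gained about as much before as after day 3 in PhIP/DSS and mostly after day 3 in DSS, and Klk15 and Lrmp gained more after day 3 in both arms. From day 1 to day 3 of PhIP/DSS all 3 genes gained at least 2-fold, as 4.25% of genes did: Lrmp 5.96-fold (4.84 to 7.39), Ctse 8.53-fold (7.07 to 10.4) and Klk15 10.1-fold (2.46 to 89.4, from 2 and 20 reads). Between the same days of DSS, Ctse gained 1.49-fold (1.25 to 1.77) and Lrmp 1.81-fold (1.53 to 2.15), and Klk15 had 0 and then 1 read. From day 3 to day 7 of DSS all 3 gained at least 2-fold, as 2.1% of genes did: Lrmp 3.96-fold (3.53 to 4.44), Ctse 4.74-fold (4.20 to 5.36) and Klk15 134-fold (23.6 to 5335, from 1 read on day 3). Over those days of PhIP/DSS, Klk15 gained 11.1-fold (7.04 to 18.6) and Lrmp 2.18-fold (1.98 to 2.40), which 4.73% of genes matched at 2-fold, and Ctse gained 1.82-fold (1.69 to 1.97).

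Set side by side on each day, PhIP/DSS was below DSS on day 1 and above it on day 3 for both Ctse and Lrmp. Ctse was at 0.572 (0.455 to 0.716) of its DSS level on day 1, 3.28 (2.90 to 3.73) on day 3 and 1.26 (1.18 to 1.35) on day 7. Lrmp was at 0.511 (0.401 to 0.649), 1.68 (1.48 to 1.92) and 0.925 (0.858 to 0.997) of its DSS level on those days. Klk15 was 20.8-fold (3.33 to 864) higher in PhIP/DSS on day 3, from 20 reads against 1, and 1.73-fold (1.39 to 2.17) higher on day 7. An arm difference of at least 2-fold upward on day 3, shown by Ctse and Klk15, was seen in 2.19% of genes, and the order of lower on day 1 with higher on day 3 in 29.3%. The PhIP/DSS library of day 1 and the DSS library of day 3 were also those with the highest summed neutrophil and macrophage markers (818 and 504 RPKM in PhIP/DSS day 1, 1152 and 285 RPKM in DSS day 3). The part of these cells in the arm differences was not tested.

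**Figure D2:**
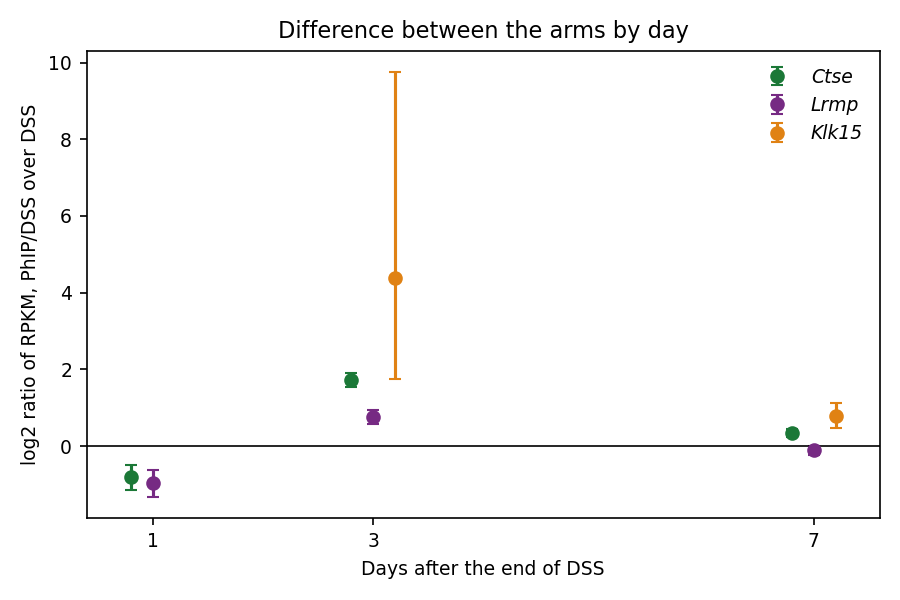
The log2 ratio of RPKM, PhIP/DSS over DSS, for Ctse, Lrmp and Klk15 on days 1, 3 and 7 after DSS, with exact 95% Poisson intervals; each point compares 1 library with 1 library, and Klk15 on day 1 (2 reads against 0) is not drawn. Ctse and Lrmp lie below 0 on day 1, at -0.81 and -0.97, and above 0 on day 3, at 1.71 and 0.75.

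A fit over all 7 libraries with edgeR's quasi-likelihood test gave each day its own level and PhIP 1 shared term, so that the spread came from how the arm difference varied between days. For day 3 against the control, Lrmp had a log2 fold change of 1.70 (SE 0.53, Benjamini-Hochberg adjusted p = 0.216), Klk15 of -3.16 (SE 0.87, adjusted p = 0.197) and Ctse of -1.05 (SE 0.67, adjusted p = 0.425). Lrmp was higher in both arms, and Klk15 and Ctse were lower in both arms. None of the 12061 genes (0%) passed an adjusted p of 0.05 in edgeR, 2291 had an unadjusted p under 0.05, and DESeq2 called 432 genes, Lrmp among them (adjusted p = 0.0224) and not Ctse (0.828) or Klk15 (0.101). The call turned on the day 1 libraries. Without PhIP/DSS day 1, edgeR called 2271 genes, with adjusted p of 0.00338 for Lrmp, 0.00874 for Klk15 and 0.0333 for Ctse, and without DSS day 1 it called 2142, with 0.0058, 0.0137 and 0.0452 for the same genes.

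Between the arms, PhIP/DSS against DSS with all 3 days in the fit, the log2 fold change was 0.44 (SE 0.49) for Ctse, 1.74 (SE 0.73) for Klk15 and -0.09 (SE 0.33) for Lrmp, each with an adjusted p of 0.998 in edgeR. Again 0 genes (0%) passed, 442 had an unadjusted p under 0.05, and DESeq2 called 18. Without the day 1 library of PhIP/DSS 324 genes were called and without that of DSS 282, with none of Ctse, Klk15 and Lrmp among them. Ctse turned to the other direction when either day 3 library was left out, at -0.20 without PhIP/DSS day 3 and -0.19 without DSS day 3.

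The other aspartic proteases followed other courses than Ctse. Ctsd (cathepsin D, the lysosomal relative) had 172, 145 and 148 RPKM in PhIP/DSS, 149, 149 and 168 RPKM in DSS, and 130 RPKM in the control. Bace2, a membrane-bound member, had 11.8, 21.96 and 15.99 RPKM in PhIP/DSS, 12.6, 25.6 and 20.8 RPKM in DSS, and 15.5 RPKM in the control. Bace1, the beta-secretase, was lower than the control's 8.21 RPKM in all treated libraries, at 3.66 to 4.54 RPKM in PhIP/DSS and 4.07 to 4.59 RPKM in DSS. Napsa (napsin A) had its highest value, 7.37 RPKM, on day 1 of PhIP/DSS, where Ctse had its lowest. Of the 9 genes in the list, 5 with Ctse were past the filter. As over all 12061 genes, 0 passed the edgeR test of day 3 against the control. Their median log2 fold change there was 0.21, against 0.01 over all genes tested.

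The cysteine and serine cathepsins, 11 of 12 past the filter, also varied less than Ctse for the most part. The most abundant were Ctss (161 to 267 RPKM in PhIP/DSS, 133 to 211 RPKM in DSS, 183 RPKM in the control), Ctsb (118 to 151 RPKM in PhIP/DSS, 117 to 142 RPKM in DSS, 104 RPKM in the control) and Ctsz (98.8 to 127 RPKM in PhIP/DSS, 94.3 to 107 RPKM in DSS, 72.4 RPKM in the control). Of the least abundant, Ctsk, the collagen-degrading cathepsin K, had 0.711, 0.160 and 1.37 RPKM in PhIP/DSS, 0.309, 0.845 and 8.66 RPKM in DSS, and 0.0880 RPKM in the control. Ctsf had 1.08 to 2.31 RPKM in PhIP/DSS, 1.41 to 2.03 RPKM in DSS and 5.88 RPKM in the control, and Ctsw, a cathepsin of cytotoxic lymphocytes, had 0.571 to 1.54 RPKM in PhIP/DSS, 0.393 to 0.744 RPKM in DSS and 1.17 RPKM in the control. The median log2 fold change of the list on day 3 was 0.02, with 0 of 11 called, as 0% of all genes were.

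Stomach is the tissue for which cathepsin E is best known, and markers of gastric surface cells were set beside it. Tff1, Tff2 and Muc5ac had at most 0.253, 0.416 and 0.0135 RPKM in any library, and 4 of the 13 listed markers were past the filter. Of these, Muc1, a membrane mucin that colon cells also express, had 5.08, 15.3 and 22.4 RPKM in PhIP/DSS, 6.71, 12.4 and 21.6 RPKM in DSS, and 10.2 RPKM in the control. Capn8, a gut calpain, had 3.02, 8.89 and 13.1 RPKM in PhIP/DSS, 6.14, 8.76 and 12.2 RPKM in DSS, and 9.41 RPKM in the control. Both were below the control on day 1 and above it on day 7 in both arms, as Ctse was. Psca and Vsig1 had their highest values on day 1 of DSS, at 54.8 and 25.5 RPKM, against 18.0 and 7.86 RPKM in the control.

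Among the 26 kallikreins listed, only Klk1 and Klk15 were past the filter, and 14 had a read in any library. Klk1, true tissue kallikrein, which releases kinins, had 184, 630 and 549 RPKM in PhIP/DSS, 281, 559 and 539 RPKM in DSS, and 873 RPKM in the control. Like Klk15 it was lowest on day 1 in both arms. Unlike Klk15 it had gained most of its level by day 3 of DSS and was below the control on day 7 in both arms. The other 12 kallikreins with reads had at most 0.782 RPKM, and the kallikrein genes within 100 kb of Klk15 had at most 0.544 RPKM. Windows before a RefSeq start of Klk15 and of Klk1 are shown because these are the kallikreins that the colon epithelium expressed and they differed on day 7. Both are from RefSeq on GRCm38.p6, on the plus strand, and hold the 250 bases before a RefSeq start, with Klk15 at chr7:43931425-43931674 and Klk1 at chr7:44225110-44225359. The start used for Klk15 is 43931675, which lies inside the gene span given above (from 43929405), and GENCODE starts the gene at 43933740. Which of these starts the colon used cannot be read from counts per gene. Capitals mark matches to TATAAA (the TATA box core) or TTTAT (a core bound by CDX and posterior HOX proteins), searched on both strands.
Klk15: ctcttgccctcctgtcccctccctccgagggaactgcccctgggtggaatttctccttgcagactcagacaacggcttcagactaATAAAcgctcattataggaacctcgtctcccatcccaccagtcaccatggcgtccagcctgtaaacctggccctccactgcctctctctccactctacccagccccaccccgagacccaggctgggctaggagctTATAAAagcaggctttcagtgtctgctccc
Klk1: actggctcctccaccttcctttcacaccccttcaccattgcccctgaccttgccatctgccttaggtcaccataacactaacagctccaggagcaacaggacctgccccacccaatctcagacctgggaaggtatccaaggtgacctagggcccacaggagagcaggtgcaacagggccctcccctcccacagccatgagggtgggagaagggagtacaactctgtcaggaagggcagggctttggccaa
Counted from that start, the Klk15 window held TATAAA on the plus strand with its first base at -30, and TTTAT on the minus strand at -165 and at -29, the second within the TATAAA match. The Klk1 window held neither. Of 32851 windows of this length, 12.4% held TATAAA and 37.3% held TTTAT. GC content was 58% for Klk15 and 58.8% for Klk1.

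**Figure D3:**
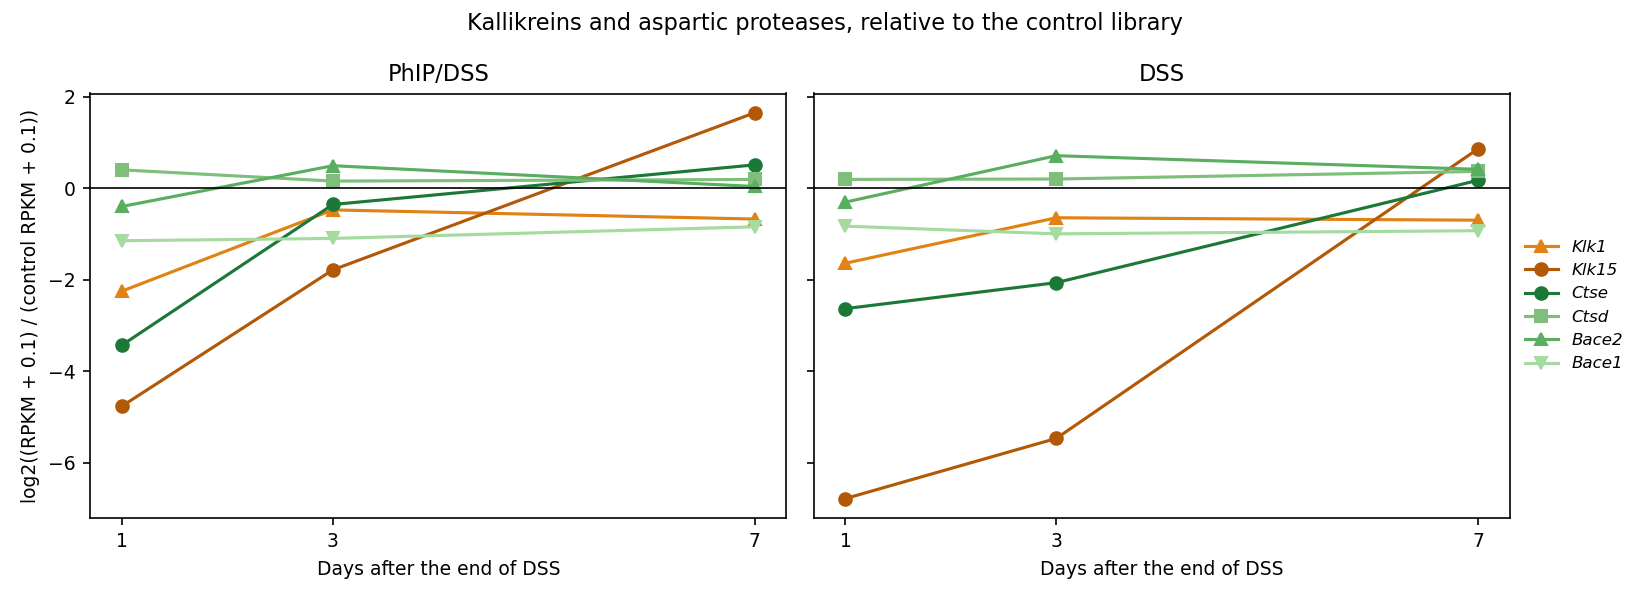
The log2 of RPKM plus 0.1 over the same sum in the control library, by day after DSS, for the kallikreins Klk1 and Klk15 and the aspartic proteases Ctse, Ctsd, Bace2 and Bace1, with PhIP/DSS on the left and DSS on the right; each point is 1 library and 0 is the control. Klk15 and Ctse start lowest and end above the control in both arms, while Klk1 ends below it (549 and 539 RPKM in PhIP/DSS and DSS, 873 RPKM in the control) and Ctsd stays near it.

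Members of protease inhibitor families and receptors of such proteases followed several courses. Spink1, a secreted trypsin inhibitor, had 170, 474 and 637 RPKM in PhIP/DSS, 127, 515 and 553 RPKM in DSS, and 272 RPKM in the control, so like Ctse and Klk15 it was below the control on day 1 and above it on day 7 in both arms. Spink4, which goblet cells secrete, had 605, 2475 and 1722 RPKM in PhIP/DSS, 989, 1937 and 1780 RPKM in DSS, and 850 RPKM in the control. The membrane-bound inhibitors Spint1 (173 to 192 RPKM in PhIP/DSS, 188 to 199 RPKM in DSS, 228 RPKM in the control) and Spint2 (935 to 1091 RPKM in PhIP/DSS, 883 to 1054 RPKM in DSS, 1016 RPKM in the control) stayed within a narrow range. Serpinb5 had 45.3 to 54.3 RPKM in PhIP/DSS, 41.1 to 50.6 RPKM in DSS and 29.8 RPKM in the control. It was above the control throughout, and Serpinb6a had 220.0 to 295 RPKM in PhIP/DSS, 206 to 269 RPKM in DSS and 278 RPKM in the control. F2rl1, the protease-activated receptor cleaved by trypsin-like enzymes, had 63.3 to 72.4 RPKM in PhIP/DSS, 62.0 to 74.9 RPKM in DSS and 70.6 RPKM in the control, and the thrombin receptor F2r had 0.972 to 2.45 RPKM in PhIP/DSS, 1.25 to 2.28 RPKM in DSS and 0.475 RPKM in the control. None of these 8 genes passed the edgeR test of day 3 against the control, and neither did any other of the 12061 genes.

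Genes were also ranked by how closely they followed each of the 3 over the 7 libraries, as the root mean square (RMS) difference of centred log2(RPKM + 0.1) values. The 5 closest to Ctse were Abcg5, a sterol exporter, at an RMS difference of 0.32, Pamr1 at 0.37, Hoxd10 at 0.38, Hoxd11 at 0.51 and Adamts15, a secreted metalloprotease, at 0.52. Abcg5 had 0.569, 3.93 and 7.93 RPKM in PhIP/DSS, 1.21, 1.51 and 4.97 RPKM in DSS, and 8.52 RPKM in the control. Pamr1 had 0.698, 4.20 and 12.4 RPKM in PhIP/DSS, 1.20, 1.28 and 6.75 RPKM in DSS, and 11.5 RPKM in the control. As with Ctse, the DSS arm had regained little by day 3 in either gene. The ranking used all 7 libraries, so this likeness was built in by the choice. For Klk15 the closest were Snora44 (at most 2 reads in a library), Pamr1, Ctse itself at rank 3, S100g and Timp4. S100g is a calcium-binding protein and Timp4 a metalloproteinase inhibitor. All 5 were at an RMS difference of 1.65 to 1.91, which is far looser than for Ctse. Counted from Ctse instead, Klk15 stood only at rank 11183 among the genes tested, at the same RMS difference of 1.86. S100g had 1.22, 13.8 and 31.7 RPKM in PhIP/DSS, 3.10, 0.474 and 6.81 RPKM in DSS, and 46.8 RPKM in the control.

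The presence of Hoxd10 and Hoxd11 led to a look at all Hox genes of paralogue groups 9 to 13, a list made after these values were seen. Posterior Hox genes pattern the hindgut, and Hoxb13 and the posterior HoxD genes are known for higher expression toward the distal colon. On day 1 of both arms 6 of the 11 measured genes, Hoxd9, Hoxd10, Hoxd11, Hoxd12, Hoxd13 and Hoxb13, were at least 2-fold below the control, as 9.74% of all genes were in PhIP/DSS and 6.18% in DSS. Hoxd13 had 7.50, 51.6 and 70.8 RPKM in PhIP/DSS, 21.5, 11.3 and 29.7 RPKM in DSS, and 50.6 RPKM in the control. Hoxd10 had 1.14, 8.34 and 15.1 RPKM in PhIP/DSS, 2.04, 1.35 and 8.64 RPKM in DSS, and 9.66 RPKM in the control. On day 3 none of the 11 was 2-fold below the control in PhIP/DSS (4.29% of all genes) and 6 were in DSS (6.39%), and Ctse too was 2-fold below only in DSS on that day. Hoxb13 had 58.1, 196 and 259 RPKM in PhIP/DSS, 136, 134 and 159 RPKM in DSS, and 320.3 RPKM in the control. The HoxA genes of the same groups varied less: Hoxa10 had 34.9, 28.7 and 32.1 RPKM in PhIP/DSS, 31.3, 27.8 and 38.3 RPKM in DSS, and 23.4 RPKM in the control, and Hoxa13 had 20.4, 23.8 and 24.5 RPKM in PhIP/DSS, 23.9, 21.9 and 26.6 RPKM in DSS, and 31.0 RPKM in the control. None of the 11 passed the edgeR test of day 3 against the control, as 0% of all genes did. The sources used here do not say which segment of the colon was scraped, and its part in these values was not tested.

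**Figure D4:**
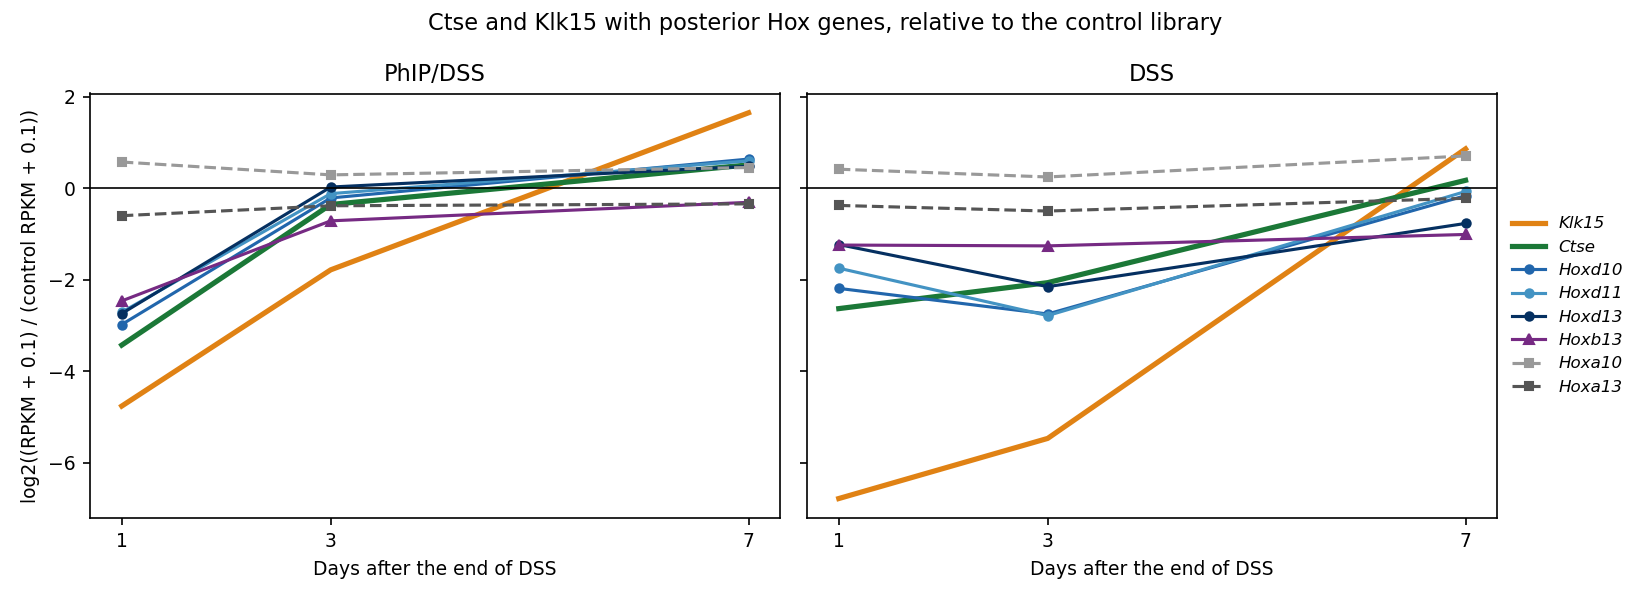
The log2 of RPKM plus 0.1 over the same sum in the control library, by day after DSS, for Klk15 and Ctse (thick lines), HoxD genes (circles), Hoxb13 (triangles) and HoxA genes (dashed), with PhIP/DSS on the left and DSS on the right; each point is 1 library. On day 3 Hoxd13 is at 51.6 RPKM in PhIP/DSS and 11.3 RPKM in DSS, against 50.6 RPKM in the control, and Ctse likewise is lower in DSS, with 58.0 RPKM in PhIP/DSS, 17.7 RPKM in DSS and 74.1 RPKM in the control.

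The genes closest to Lrmp included none of those named for Ctse and Klk15. Among the 5 closest were Adcy8, an adenylyl cyclase, at an RMS difference of 0.36, Apobec2 at 0.59, Cdkn2a, a cell cycle inhibitor locus, at 0.65 and Xkr4 at 0.68. Apobec2 had 1.54, 4.09 and 8.21 RPKM in PhIP/DSS, 1.60, 2.43 and 5.97 RPKM in DSS, and 1.82 RPKM in the control. Like Lrmp, it was near the control on day 1 and above it on days 3 and 7 in both arms, a likeness for which the ranking picked it. Adcy8, Cdkn2a and Xkr4 had at most 1.41, 1.04 and 2.09 RPKM. Cdkn2a rested on at most 8 reads in a library. With genes limited to those with at least 100 reads in their highest library, a limit chosen after seeing the data, Muc1 was among the 5 closest.

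The IP3 receptors, partners of Lrmp, followed other courses. Itpr3, the most abundant of them, had 26.2, 38.7 and 37.5 RPKM in PhIP/DSS, 35.3, 37.4 and 39.2 RPKM in DSS, and 40.1 RPKM in the control. Itpr2 was below the control's 3.55 RPKM in every treated library, at 1.37 to 1.71 RPKM in PhIP/DSS and 1.54 to 1.88 RPKM in DSS. Itpr1 had 1.39, 2.25 and 2.46 RPKM in PhIP/DSS, 1.26, 1.59 and 2.21 RPKM in DSS, and 3.12 RPKM in the control. Plcg2, the phospholipase upstream of IP3, had 2.29 to 4.47 RPKM in PhIP/DSS, 2.61 to 3.83 RPKM in DSS and 3.42 RPKM in the control. Mrvi1, the relative of Lrmp, had at most 0.519 RPKM.

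Tuft cells are known to express Lrmp. Where Lrmp was above the control, more tuft cell markers were below it than above. On days 3 and 7 of DSS this share was near that of all genes. Above the control were 0 and 5 of 18 markers on days 3 and 7 of PhIP/DSS. On days 1, 3 and 7 of DSS 2, 8 and 7 were above it. Of the 12061 genes, 5911 and 5771 were above it in PhIP/DSS, and 6093, 5688 and 5319 in DSS. Many of the markers were higher on day 7 than on day 1, as Lrmp was. The tuft cell markers Dclk1 (0.596, 0.830 and 1.27 RPKM in PhIP/DSS, 0.816, 0.666 and 1.56 RPKM in DSS, 2.85 RPKM in the control) and Trpm5 (0.535, 0.758 and 1.41 RPKM in PhIP/DSS, 1.10, 0.727 and 1.77 RPKM in DSS, 4.70 RPKM in the control) were below the control in every treated library. Ltc4s, a leukotriene synthase, had 0.996, 1.21 and 1.62 RPKM in PhIP/DSS, 0.779, 1.16 and 1.44 RPKM in DSS, and 3.77 RPKM in the control. Pou2f3, the tuft cell transcription factor, was below the filter, with 0.186 to 0.283 RPKM in PhIP/DSS, 0.226 to 0.672 RPKM in DSS and 0.931 RPKM in the control, and Avil had 2.51 to 3.18 RPKM in PhIP/DSS, 2.15 to 4.51 RPKM in DSS and 3.23 RPKM in the control. Of the 18 tuft cell markers past the filter, 0 were at least 2-fold above the control and 6 at least 2-fold below it on day 7 of PhIP/DSS, with 2 above and 4 below on day 7 of DSS. Over all genes 7.9% were at least 2-fold above and 3.88% below on day 7 of PhIP/DSS, and 8.19% above and 5.18% below on day 7 of DSS. The median log2 ratios of the 18 markers to the control were -0.34 and -0.47 on day 7 of PhIP/DSS and DSS. Over all genes tested they were -0.02 and -0.06. From day 1 to day 7, 11 of the 18 were higher in PhIP/DSS (median log2 ratio 0.35) and 17 of the 18 in DSS (0.82). From day 3 to day 7, 17 of the 18 were higher in PhIP/DSS (0.68) and 11 in DSS (0.27). Of the 12061 genes tested, 5751 were higher on day 7 than on day 1 in PhIP/DSS and 5668 in DSS. From day 3 to day 7 these numbers were 6109 and 5718. The part of tuft cells in the Lrmp level was not tested.

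The 6 measured B cell markers, led by Cd79a, were higher than in the control on day 7 of PhIP/DSS (median log2 ratio 1.04, 4 at least 2-fold higher, against 7.9% of all genes) and lower on day 7 of DSS (-1.01, 3 at least 2-fold lower, against 5.18%). Cd79a had 8.12, 4.20 and 14.9 RPKM in PhIP/DSS, 3.71, 4.38 and 3.56 RPKM in DSS, and 7.96 RPKM in the control. In the same libraries Lrmp stood at 69.6 RPKM on day 7 of PhIP/DSS and 75.2 RPKM on day 7 of DSS. The plasma cell marker Jchain, the joining chain of secreted antibodies, had 26.3, 16.5 and 53.5 RPKM in PhIP/DSS, 7.81, 15.1 and 34.3 RPKM in DSS, and 9.39 RPKM in the control. The 4 plasma cell markers past the filter, which include Sdc1 of epithelial cells, summed to 164 and 176 RPKM on day 7 of PhIP/DSS and DSS, and to 107 RPKM in the control. Sdc1 alone held 106, 138 and 97.0 RPKM of these sums. The 7 measured T cell markers summed to 13.8 and 7.62 RPKM on day 7 of PhIP/DSS and DSS, against 10.7 RPKM in the control. The 4 plasma cell markers and Lrmp were above the control on day 7 in both arms, as 37% of all genes were. On day 1 of PhIP/DSS the 4 markers were above the control too (167 RPKM summed), where Lrmp had its lowest value, 5.37 RPKM. The part of plasma cells in the Lrmp level was not tested.

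**Figure D5:**
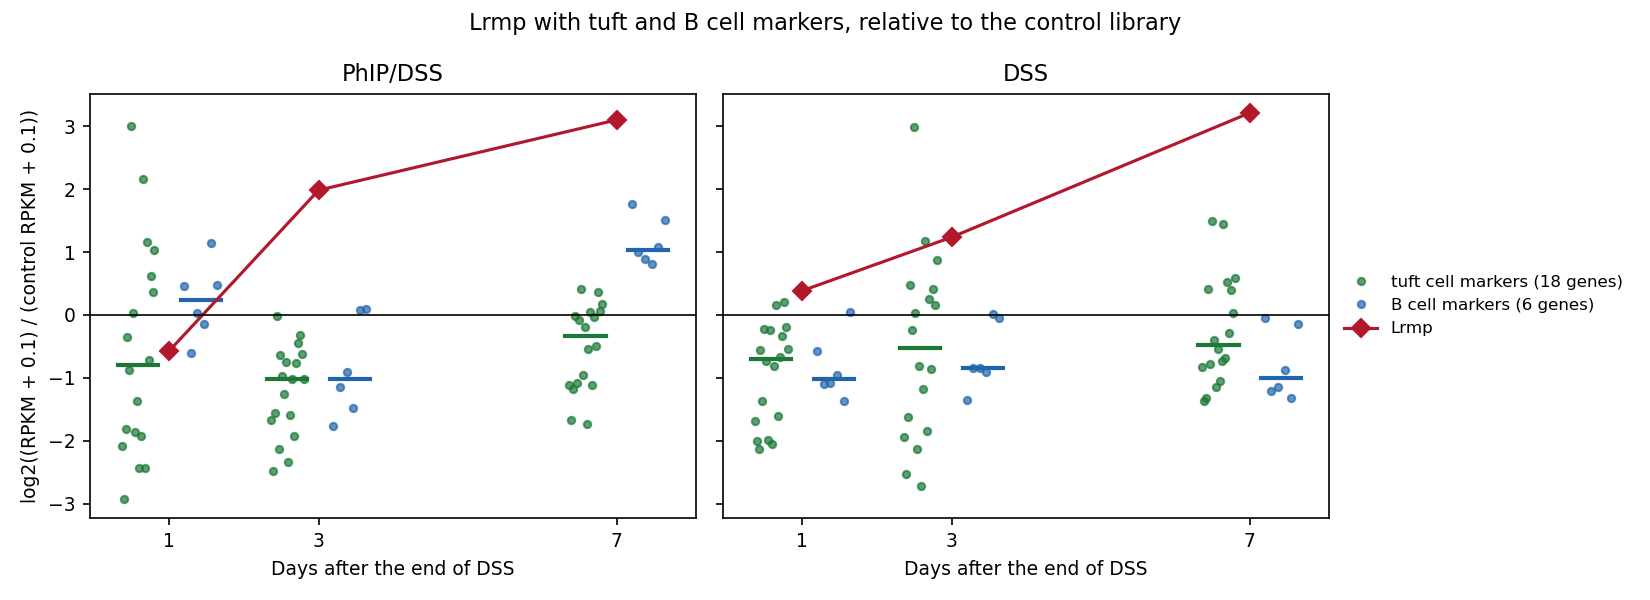
The log2 of RPKM plus 0.1 over the same sum in the control library, by day after DSS, for Lrmp (diamonds), 18 tuft cell markers and 6 B cell markers, with PhIP/DSS on the left and DSS on the right; each dot is 1 gene in 1 library and short lines are medians. Lrmp reaches about the same height in both arms on day 7 (69.6 RPKM in PhIP/DSS and 75.2 RPKM in DSS), while the B cell median is 1.04 in PhIP/DSS and -1.01 in DSS and the tuft cell median is below 0 in both.

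Epithelial lineages were compared last. The 9 goblet cell markers, led by Zg16, had a median log2 ratio to the control of -0.55, 0.34 and -0.28 on days 1, 3 and 7 of PhIP/DSS and of -0.40, 0.44 and -0.01 on the same days of DSS. The median was lowest on day 1 in both arms, as were the 3 genes, which were chosen for that. In each arm 7 of the 9 were higher on day 7 than on day 1, and Agr2 and Spdef were lower. Of all 12061 genes, 5751 were higher in PhIP/DSS and 5668 in DSS. The sum of the 8 enteroendocrine markers, led by Pyy, was 558, 680 and 458 RPKM in PhIP/DSS, 477, 371 and 341 RPKM in DSS, and 483 RPKM in the control.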

How the data were processed

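RNA from scraped colon epithelium was sequenced in 7 libraries. Per the file headers, the deposited tables of the authors give the count of unique reads per gene, gene length, the percent of the gene covered and RPKM, which equalled reads over length and library total (largest relative deviation 7.8e-14). The submitters' processing notes name mm10 and FastQC. The sources used here name no aligner, counter or strand setting (not given). Genes missing from a table were entered as 0 reads, and 17983 of 18036 identifiers matched a symbol in RefSeq (GRCm38.p6). Names were taken from that table, and GENCODE M21 gave overlapping genes.

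The counts of the 12061 genes that reached 1 RPKM in 2 or more libraries entered a quasi-likelihood fit in edgeR 4.0.16 (R 4.3.3) with TMM scaling and Benjamini-Hochberg adjustment, with 2 residual degrees of freedom. The common dispersion was 0.0563. P-values measure only how the arm difference varied between days, because no condition had a second pool. DESeq2 1.42.0 and limma 3.58.1 were alternatives. Ratios of single libraries were scaled by library totals, with exact 95% Poisson intervals and a floor of 3 reads that cover counting error only. The genes, gene lists and tests were chosen with earlier results of these data known. Genes were named as members, as the 5 closest to each, as neighbours within 100 kb, or by list: all past the filter in short lists, otherwise the most and least abundant, and of the marker lists the defining or most abundant. Muc1 and Capn8, Clu, Gata5 and the Hox genes were named after their values were seen. Some genes are not reported here.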

Additional observations from a re-analysis of the deposited data

Results flagged for a closer look

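The difference between the arms had opposite signs on days 1 and 3 for Ctse and for Lrmp. The log2 ratio of PhIP/DSS over DSS was -0.81 on day 1 and 1.71 on day 3 for Ctse, and -0.97 on day 1 and 0.75 on day 3 for Lrmp. Each is 1 library against 1 library, and the change of the difference between days was not tested. The same order of signs was seen in 29.3% of the 12061 genes.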

How the results depend on the processing

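No paired analysis was possible because each condition had 1 library and the labels give no replicate numbers. The day terms of the fit do set the arms side by side within a day, and with no day terms edgeR called 0 genes between the arms (207 at an unadjusted p under 0.05). Of the 17 ratios to the control, with Klk15 on day 1 of DSS left out for its 0 reads, all stayed within their counting intervals under TMM and RLE scaling, and the largest change was 0.0415 on the log2 scale. For day 3 against the control the number of genes called was 0 with edgeR, 432 with DESeq2, 3 with no filter, 27 with no PhIP term, 16 and 2 with limma on log2(RPKM + 0.1) and log2(RPKM + 1), and 0 to 2271 with a library left out. With a library left out, the log2 fold change on day 3 was -2.14 to -0.24 for Ctse, -5.51 to -2.27 for Klk15 and 1.01 to 2.27 for Lrmp, with adjusted p of 0.0333 to 0.902, 0.00874 to 0.632 and 0.00338 to 0.571. All 3 were called without either day 1 library, which leaves the spread to days 3 and 7. Lrmp was also called by DESeq2 (1.70 on the log2 scale, adjusted p = 0.0224). For PhIP/DSS against DSS the number called was 18 with DESeq2 and 0 to 324 with a library left out. The log2 fold change then ran from -0.20 to 0.95 for Ctse (negative without either day 3 library), from 0.96 to 4.18 for Klk15 and from -0.52 to 0.27 for Lrmp (positive without either day 1 library). It was 0.0080 for Lrmp with no day terms. The cause of these changes was not tested. The DESeq2 adjusted p of Klk15 in that comparison was not given by the tool. Of the 5 closest genes, 3 to 4 of Ctse, 2 to 5 of Klk15 and 1 to 5 of Lrmp remained with a library left out, and 0 of each with Pearson's correlation in place of the RMS difference. Klk15 rests on few reads on days 1 and 3, so its folds there are known only within wide intervals.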
